A study of Mus musculus with 6 samples.

Results

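The enzymes that make, use and rebuild S-adenosylmethionine (SAM), the methyl donor of histone methyltransferases such as Dot1l, were examined in mouse CD8+ T cells. The list held 38 genes of the methionine cycle, methionine salvage, polyamine synthesis, the folate cycle and the purine and serine pathways tied to it, chosen by name. Of these, 35 were measured, among 22180 genes in all. A gene was measured where a probe set of the array was annotated to that symbol alone, and the brightest probe set stood for genes with several. Mat2a, which encodes the SAM synthetase of most tissues, and Amd1 and Sms, which act in polyamine synthesis, were not measured by this rule and are not analysed here.

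RNA came from CD8+ T cells of C57BL/6 mice, with 3 arrays labelled Dot1l knockout and 3 labelled wild type, all hybridised to whole-transcript Affymetrix expression arrays. Knockout mice descended from a cross of Dot1l flox/flox and CD4-Cre animals, so recombination was under the control of the Cd4 promoter, which thymocytes use before the CD8 lineage separates. The labels do not say whether the wild type mice carried the floxed allele or Cre, give no age, and do not say whether arrays came from separate animals. P-values therefore measure the spread between these arrays, which may be technical. The cells were taken fresh from peripheral lymph nodes and spleen and purified with a magnetic kit. Values are log2 expression after RMA normalization. Differences are knockout minus wild type, and n = 3 arrays per group throughout.

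In the methionine cycle, methionine is activated to SAM, methyl transfer leaves S-adenosylhomocysteine, and hydrolysis of that inhibitor gives homocysteine, which is methylated back to methionine with a carbon unit from folate or betaine. Polyamine synthesis draws on SAM too, and its by-product methylthioadenosine is turned back into methionine by the salvage pathway. Activated T cells are known to raise methionine uptake, folate enzymes and ornithine decarboxylase as they begin to grow, while resting T cells keep these pathways low.

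The target of the knockout did not read lower. Dot1l read 7.31, 7.26 and 7.33 in knockout arrays, against 7.46, 6.96 and 7.18 in wild type arrays (difference 0.10, SE 0.13, adjusted p = 0.765). The sources used here do not name the removed exon, and a probe set that lies elsewhere checks nothing, so the groups are named as labelled. Over all genes, Pearson's r between arrays was 0.9886 to 0.995 inside a group and 0.9842 to 0.9869 across groups. Of 8 measured CD8 T cell markers all lay above the background guide of 3.83, the 95th percentile of 1394 olfactory and vomeronasal receptor genes, and Cd4 (mean 3.83) lay just under it. Cd5, a brake on T cell receptor signals, was the marker of these 8 that passed, as lower in knockout arrays (-1.01, SE 0.10, adjusted p = 0.000376).

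Differences in these pathways were small, and 1 member passed, the salvage enzyme gene Mri1, which was higher in knockout arrays (limma with Benjamini-Hochberg adjustment over all 22180 genes, adjusted p under 0.05). None passed as lower. Among all genes tested 5.50% passed, 4.30% as higher and 1.20% as lower, beside 1 of 35 members (2.86%). All genes include 10755 with a mean below the background guide, against 6 members. The all-gene shares given here and below therefore do not compare genes of like level. Among the 11090 genes above the median level 1537 passed, beside 1 as higher and 1 as lower of 28 members. At an unadjusted p under 0.05 there were 8 of 35 members (22.9%), beside 18.0% of all genes. By direction, 2 (5.71%) were higher and 6 (17.1%) lower in knockout arrays, beside 11.2% and 6.83% of all genes. The member differences ran from -0.41 to 0.50, with a median of -0.04, beside -0.01 over all genes. Their median size was 0.17, beside 0.13 over all genes.

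The intervals bound what could have been missed with the deposited values. For all 35 members the 95% interval of the difference, unadjusted for the number of genes, lay inside a 2-fold change in either direction, and for 28 it lay inside a 1.5-fold change. The 7 whose interval reached 1.5-fold were Mri1, Phgdh, Bhmt, Oaz1, Mthfd2, Aldh1l1 and Aldh1l2. These counts depend on the scaling. After another quantile normalization some of the 28 differed by more, such as Ahcyl2 (-0.502, SE 0.099) and Mthfd2l (-0.450, SE 0.144). Others differed by less, such as Oaz2 (0.014, SE 0.104). RMA values of dim probe sets understate differences, and 6 members had a mean below the background guide, namely Mat1a, Bhmt, Nnmt, Cbs, Cth and Aldh1l2. All these bounds are of probe set values, and for these 6 they cannot be read as bounds on the transcript. Differences of members just above the guide, such as Aldh1l1 (mean 3.86), may be understated too.

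**Figure D1:**
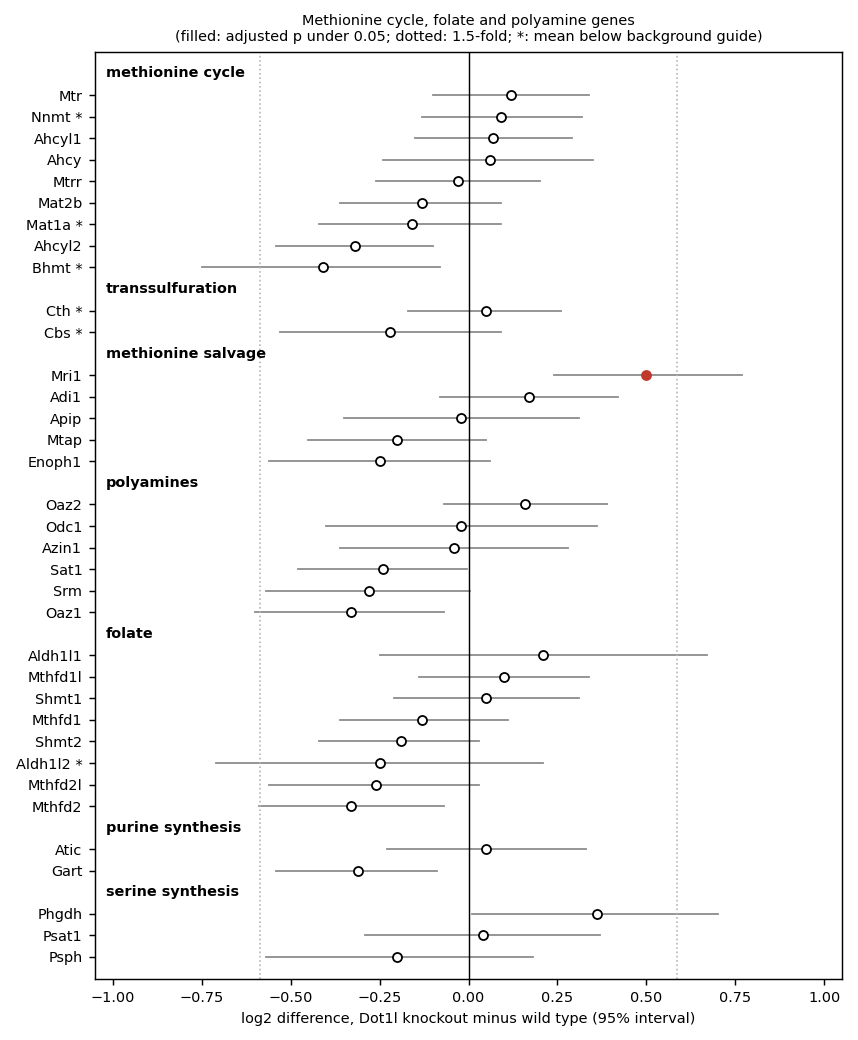
Log2 difference of each of the 35 measured genes, knockout minus wild type (horizontal axis), grouped by pathway, with the 95% interval of the limma fit as a line. Only Mri1, at 0.50, is filled as passing; the other 34 points are open, and an asterisk marks the 6 genes with a mean below the background guide.

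The groups did not overlap in 11 of 35 members (31.4%), beside 23.5% of all genes. Knockout arrays were the higher ones in 3 members, Mri1, Mtr and Oaz2 (8.57%, beside 13.7% of all genes). They were the lower ones in 8 members, Ahcyl2, Bhmt, Mat2b, Oaz1, Sat1, Mthfd2, Shmt2 and Gart (22.9%, beside 9.78% of all genes). Wild type replicate 2 held the highest of the 6 values in 14 of 35 members and the lowest in 2. Without it the groups were separate in 8 members as higher (22.9%, beside 20.6% of all genes) and in 9 as lower (25.7%, beside 15.6%), a count added after seeing the data. Without knockout replicate 1 the lower members numbered 14 (40.0%, beside 14.5%), and without wild type replicate 3 they numbered 13 (37.1%, beside 14.8%). Without knockout replicate 2 the higher members numbered 5 (14.3%, beside 17.9%). These shares describe the list and were not tested, and apart from Mri1 none of the 11 passed.

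Salvage of methionine held the member that passed. Mri1, the isomerase that acts on methylthioribose 1-phosphate, read 5.99, 5.72 and 5.92 in knockout arrays, against 5.42, 5.49 and 5.22 in wild type arrays. Every knockout array was above every wild type array, and knockout replicate 2 and wild type replicate 2 came closest to each other. The rise was 1.42-fold (log2 difference 0.50, SE 0.12, 95% interval 0.24 to 0.77, adjusted p = 0.0404). The call was near the threshold and rested on most of the arrays. It ended when any array other than wild type replicate 2 was left out (adjusted p of 0.0585 to 0.152, with differences of 0.424 to 0.580). Those fits hold fewer arrays. The call also ended after rescaling, with a difference of 0.31 after another quantile normalization (adjusted p = 0.219) and 0.45 after median centring (adjusted p = 0.0862). Mri1 still passed among genes above the 25th or the 50th percentile of level (adjusted p = 0.0338 and 0.0215). It also passed with trend and robust fitting (0.0365), array weights (0.0246) and the mean of probe sets (0.0397).

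Other transcripts moved in the same arrays as Mri1. For the counts that follow, 4.30% of all genes passed as higher and 1.20% as lower. Of 21 measured proliferation markers 4 passed as higher and 0 as lower, with summed linear levels of 3160 to 3435 in knockout arrays and 2832 to 2931 in wild type arrays. Of 12 B cell markers 3 passed as higher and 1, Ighm, as lower, with sums of 1659 to 1801 in knockout arrays and 2201 to 2496 in wild type arrays. Ighm, read from the brightest of its 7 probe sets, decided those sums. The other 11 markers summed to 370 to 412 in knockout arrays and 278 to 302 in wild type arrays. Of the B cell markers 5 of the 12 (Ms4a1, Pax5, Ebf1, Cr2 and Fcrla) had means below the background guide. Of 11 dendritic cell markers 2 passed as higher, with sums of 526 to 577 in knockout arrays and 461 to 576 in wild type arrays. Without the bright Cd209a, which differed by -0.37 and did not pass, the sums were 329 to 353 in knockout arrays and 230 to 308 in wild type arrays, and Flt3, Zbtb46, Xcr1, Siglech and Batf3 had means below the guide. Of 20 immediate early genes 6 passed as higher, with sums of 13312 to 14450 in knockout arrays and 11624 to 12459 in wild type arrays. Of 4 NK cell markers 2 passed as higher, Eomes and Nkg7. The 4 summed to 2649 to 2762 in knockout arrays and 1484 to 1778 in wild type arrays. Eomes and Nkg7 were bright (wild type means 8.29 and 10.25) and decided those sums. Ncr1 (wild type mean 4.93) and Klrb1c (mean 3.70, below the guide) did not pass. Of 9 myeloid markers 1, Itgam, passed as higher, and 0 of 5 erythroid markers passed. Of 4 markers of other T cells 1, Il2ra, passed as higher (0.69, SE 0.14, adjusted p = 0.0194). The part of these transcripts in the Mri1 result was not tested. In RNA of bulk cells, a different share of cells of a type and a different level per cell cannot be told apart.

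The promoter of Mri1 is shown because it is the member that passed, beside that of Gart, a member that was lower in every knockout array without passing. Both are RefSeq sequences of build GRCm38.p6, from 250 bases before to 50 after the annotated start, on the minus strand and written in the direction of the gene. Mri1 lies at chr8:84257275-84257574 and Gart at chr16:91646923-91647222, and capitals mark the GC box, GGGCGG or its reverse complement CCGCCC, the core recognised by Sp factors.
Mri1: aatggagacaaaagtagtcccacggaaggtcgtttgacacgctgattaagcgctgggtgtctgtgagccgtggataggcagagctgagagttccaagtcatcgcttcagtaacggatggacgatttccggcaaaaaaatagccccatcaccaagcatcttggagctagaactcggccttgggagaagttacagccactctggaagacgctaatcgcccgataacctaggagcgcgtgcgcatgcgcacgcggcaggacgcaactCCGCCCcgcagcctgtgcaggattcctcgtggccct
Gart: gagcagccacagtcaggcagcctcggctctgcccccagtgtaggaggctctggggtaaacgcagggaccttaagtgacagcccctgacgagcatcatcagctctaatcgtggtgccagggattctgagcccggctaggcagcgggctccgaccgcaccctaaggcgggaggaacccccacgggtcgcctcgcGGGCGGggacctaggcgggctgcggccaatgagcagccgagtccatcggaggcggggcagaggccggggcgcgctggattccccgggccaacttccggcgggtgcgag
Each window held 1 GC box. In Mri1 it began at base 265 of the window, after the annotated start, and in Gart at base 193, before it. RefSeq promoters were found for 28 of the 35 measured members, 34 windows in all, since some genes have several starts.

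Across these windows the GC box was common. It was present in 25 of 34 member windows (73.5%), beside 35.7% of all 32851 promoter windows, on either strand. The E-box CACGTG, the site bound by Myc and Max, was present in 3 windows (8.82%), those of Atic, Cbs and Enoph1, beside 7.15% of all windows. The amino acid response element core TGATGNAA, which Atf4 binds with a partner, was present in 0 of 34 windows, beside 3.97% of all. None of the motifs contains another, and a match describes these windows only. Member windows and all windows were not matched for base composition or level of expression. Genes with several starts counted more than once.

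The remaining salvage genes did not pass. Mtap, the phosphorylase that opens the pathway by splitting methylthioadenosine, read 7.79, 7.999 and 7.88 in knockout arrays, against 8.23, 8.05 and 7.97 in wild type arrays (difference -0.20, SE 0.11, adjusted p = 0.412). Knockout replicate 2 lay above wild type replicate 3, so the groups overlapped. Downstream of Mri1, the dehydratase gene Apip differed by -0.02 (SE 0.15), the enolase-phosphatase gene Enoph1 by -0.25 (SE 0.14, or -0.106 without wild type replicate 2) and the dioxygenase gene Adi1 by 0.17 (SE 0.11). The 5 salvage genes thus had a median of -0.02, with 2 differences above 0 and 3 below it.

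In the methionine cycle 0 of 9 members passed the limma test. An unadjusted p under 0.05 was held by 2 (22.2%), beside 18.0% of all genes. Ahcyl2, which encodes a homologue of S-adenosylhomocysteine hydrolase that is studied as a regulator and not as a hydrolase, read 5.63, 5.78 and 5.65 in knockout arrays, against 5.97, 6.02 and 6.02 in wild type arrays. All knockout arrays were below all wild type arrays, and the wild type values lay within a narrow range (SD 0.03). The difference was -0.32 (SE 0.10, 95% interval -0.54 to -0.10, unadjusted p = 0.00928, adjusted p = 0.109). It passed after another quantile normalization (-0.50, adjusted p = 0.0223) and among genes above the median level (adjusted p = 0.0498).

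Its relatives differed by less and did not pass. Ahcy, the hydrolase itself, read 5.95, 5.51 and 5.79 in knockout arrays, against 5.63, 5.81 and 5.64 in wild type arrays (difference 0.06, SE 0.13, 95% interval -0.24 to 0.35). The knockout values spanned the wild type values. A second, dimmer Ahcy probe set, below the background guide, differed by -0.09 (SE 0.21). Ahcyl1, the other homologue and a partner of the inositol trisphosphate receptor, read 8.52 ± 0.07 in knockout and 8.45 ± 0.05 in wild type arrays (SD), a difference of 0.07 (SE 0.10).

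The methionine-forming enzymes and the SAM synthetase subunits did not pass either. Mtr, the cobalamin-dependent methionine synthase, read 7.06, 7.18 and 7.19 in knockout arrays, against 7.04, 7.02 and 7.004 in wild type arrays. The groups were separate, but by a margin smaller than the spread of the knockout arrays (difference 0.12, SE 0.10, adjusted p = 0.578). Mtrr, the reductase that reactivates methionine synthase, differed by -0.03 (SE 0.10). Mat2b, the regulatory subunit of the SAM synthetase whose catalytic subunit was not measured, read 7.09, 7.23 and 7.13 in knockout arrays, against 7.23, 7.38 and 7.24 in wild type arrays (difference -0.13, SE 0.10, adjusted p = 0.552). Its groups touched, with knockout replicate 2 and wild type replicate 1 equal at 2 decimals.

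The liver enzymes of the cycle were dim. Bhmt, the betaine-dependent methyltransferase of liver and kidney, had the most negative difference among the members at -0.41 (SE 0.15, adjusted p = 0.169), with 3.18, 3.01 and 2.92 in knockout arrays, against 3.74, 3.19 and 3.43 in wild type arrays. All 6 values lay under the guide of 3.83, where a difference cannot be read as one of a transcript. Mat1a, the SAM synthetase of liver, read 2.64 ± 0.15 in knockout and 2.81 ± 0.08 in wild type arrays, and Nnmt, which spends SAM on nicotinamide, 2.58 ± 0.04 and 2.49 ± 0.10. All 5 hepatocyte markers (Alb, Apoa1, Ttr, Serpina1a and Fgb) also had means below the guide. Cbs and Cth, which carry homocysteine to cysteine, differed by -0.22 (SE 0.14) and 0.05 (SE 0.09) at means of 3.77 and 3.07, below the guide.

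In polyamine synthesis 0 of 6 members passed, and 2 (33.3%) had an unadjusted p under 0.05, beside 18.0% of all genes. Differences were below 0 in 5 of the 6, beside 11704 of all 22180 genes. Odc1, ornithine decarboxylase and the entry step, read 8.81, 8.999 and 8.55 in knockout arrays, against 8.76, 8.53 and 9.12 in wild type arrays. The lowest and the highest of the 6 values were both wild type arrays. The difference was -0.02 (SE 0.17, 95% interval -0.40 to 0.36).

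Antizymes bind ornithine decarboxylase and lead it to the proteasome, and the antizyme inhibitor takes them away from it. Oaz1, the main antizyme, read 5.56, 5.55 and 5.60 in knockout arrays, against 5.98, 6.04 and 5.69 in wild type arrays. The knockout arrays were lower and close together (SD 0.03), and wild type replicate 3 was the nearest to them. The difference was -0.33 (SE 0.12, 95% interval -0.60 to -0.07, adjusted p = 0.159). Of the alternatives run Oaz1 passed after another quantile normalization alone (-0.53, adjusted p = 0.0374). A further Oaz1 probe set, annotated to several symbols, was left out by the rule, so these values rest on a single probe set. Oaz2, a second antizyme, read 6.44, 6.35 and 6.22 in knockout arrays, against 6.21, 6.15 and 6.15 in wild type arrays (difference 0.16, SE 0.10, adjusted p = 0.464). Its other probe set differed by 0.18 (SE 0.12). Azin1, the antizyme inhibitor, read 8.12, 8.13 and 8.12 in knockout arrays, against 8.08, 7.93 and 8.48 in wild type arrays (difference -0.04, SE 0.14). Among wild type arrays Odc1 and Azin1 were both highest in replicate 3 and lowest in replicate 2.

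The genes of spermidine synthesis and polyamine acetylation did not pass either. Srm, spermidine synthase, read 7.70, 7.41 and 7.59 in knockout arrays, against 7.83, 8.03 and 7.68 in wild type arrays. The groups overlapped by knockout replicate 1 and wild type replicate 3 alone (difference -0.28, SE 0.13, 95% interval -0.57 to 0.004, adjusted p = 0.285). Sat1, the acetyltransferase that marks polyamines for export or breakdown, read 8.09, 8.14 and 8.06 in knockout arrays, against 8.48, 8.33 and 8.21 in wild type arrays. All knockout arrays were lower, and the difference was -0.24 (SE 0.11, 95% interval -0.48 to -0.004, unadjusted p = 0.0471, adjusted p = 0.269).

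**Figure D2:**
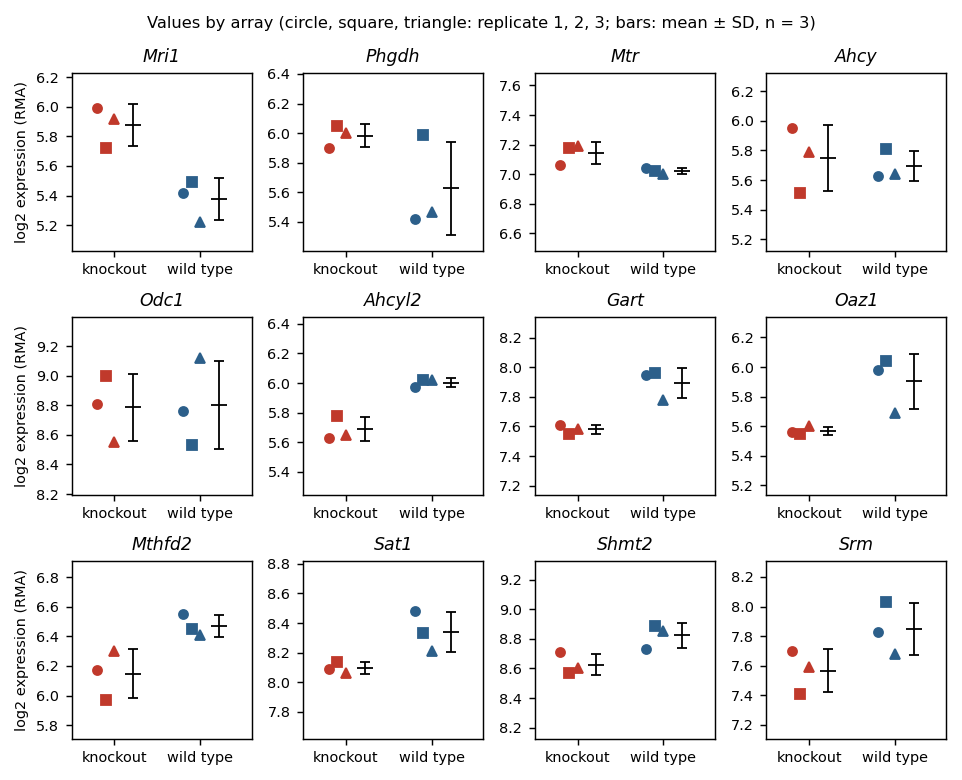
Log2 expression (vertical axes, each spanning the same range about the gene's mean) of 12 genes in the 3 knockout arrays (red, left) and the 3 wild type arrays (blue, right), with bars for mean ± SD. The groups are separate for Mri1, Mtr, Ahcyl2, Gart, Oaz1, Mthfd2, Sat1 and Shmt2 and overlap for Phgdh, Ahcy, Odc1 and Srm.

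Folate enzymes pass carbon units from serine between mitochondria and cytosol, and 0 of 8 passed. At an unadjusted p under 0.05 there was 1 (12.5%), beside 18.0% of all genes. Mthfd2, the mitochondrial dehydrogenase and cyclohydrolase that proliferating cells switch on, read 6.17, 5.97 and 6.30 in knockout arrays, against 6.55, 6.45 and 6.41 in wild type arrays. All knockout arrays were lower, with knockout replicate 3 closest to wild type (difference -0.33, SE 0.12, 95% interval -0.59 to -0.07, adjusted p = 0.16). Its relative Mthfd2l read 5.05, 4.87 and 4.67 in knockout arrays, against 5.08, 5.30 and 4.98 in wild type arrays, and the groups overlapped (difference -0.26, SE 0.13, adjusted p = 0.346). Mthfd1l, the next mitochondrial enzyme, which releases formate, differed by 0.10 (SE 0.11).

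The serine hydroxymethyltransferases feed the pathway. Shmt2, the mitochondrial form, read 8.71, 8.57 and 8.60 in knockout arrays, against 8.73, 8.89 and 8.85 in wild type arrays. Knockout replicate 1 and wild type replicate 1 nearly met (difference -0.19, SE 0.10, adjusted p = 0.368). Shmt1, the cytosolic form, read 5.14, 4.95 and 5.09 in knockout arrays, against 4.83, 5.07 and 5.13 in wild type arrays (difference 0.05, SE 0.12). Mthfd1, the cytosolic enzyme with 3 activities, read 7.11, 7.04 and 7.15 in knockout arrays, against 7.29, 7.29 and 7.10 in wild type arrays, with wild type replicate 3 among the knockout values (difference -0.13, SE 0.10). Aldh1l1 and Aldh1l2, which oxidise formyl-folate to carbon dioxide, were near or under the background guide and had the widest spread of the folate members, with differences of 0.21 (SE 0.20) and -0.25 (SE 0.20). The second lay between -0.438 and -0.057 when 1 array was left out.

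Purine and serine synthesis use and supply these carbon units. Gart, which holds 3 steps of purine synthesis including a formyl transfer, read 7.61, 7.55 and 7.58 in knockout arrays, against 7.95, 7.96 and 7.78 in wild type arrays. All knockout arrays were lower, and their spread (SD 0.03) was smaller than that of wild type arrays (SD 0.10). The difference was -0.31 (SE 0.10, 95% interval -0.54 to -0.09, adjusted p = 0.128). Its 2 other probe sets had group means of 3.58 to 3.82, below the background guide, so they bear little on that difference (0.12, SE 0.13, and -0.07, SE 0.12). Averaging them in gave -0.09 (adjusted p = 0.706). Atic, which carries the later formyl transfer, read 7.92, 7.90 and 8.11 in knockout arrays, against 7.80, 8.15 and 7.83 in wild type arrays (difference 0.05, SE 0.13).

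Phgdh, the first enzyme of serine synthesis, depended on 1 array. It read 5.90, 6.05 and 6.00 in knockout arrays, against 5.42, 5.99 and 5.47 in wild type arrays. Wild type replicate 2 lay among the knockout values and the other wild type arrays lay well below them. With all arrays the difference was 0.36 (SE 0.15, 95% interval 0.01 to 0.70, adjusted p = 0.258), and without wild type replicate 2 it was 0.54 and passed (adjusted p = 0.0234). Psat1, the next enzyme, read 6.20, 6.03 and 5.99 in knockout arrays, against 6.11, 6.27 and 5.73 in wild type arrays (difference 0.04, SE 0.15). Psph, the last enzyme, read 5.56, 4.95 and 4.97 in knockout arrays, against 5.26, 5.48 and 5.33 in wild type arrays, so knockout replicate 1 stood above all wild type arrays and the other knockout arrays below them (difference -0.20, SE 0.17). Without knockout replicate 1 the difference was -0.398 (adjusted p = 0.158).

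Ratios within an array compare how 2 genes changed relative to each other and cancel any shift of the whole array. The pairs were chosen after their values were seen, so they are described with no test, and only their change and not their level can be read. The ratio of Oaz1 to Oaz2 averaged -0.76 ± 0.13 in knockout arrays and -0.27 ± 0.18 in wild type arrays on the log2 scale (SD), without overlap, a difference of -0.50. The ratio of Ahcyl2 to Ahcyl1 averaged -2.84 ± 0.15 in knockout arrays and -2.45 ± 0.03 in wild type arrays, without overlap, a difference of -0.39. The mitochondrial over the cytosolic serine hydroxymethyltransferase gene, Shmt2 over Shmt1, averaged 3.57 ± 0.05 in knockout arrays and 3.81 ± 0.09 in wild type arrays, without overlap. That difference of -0.24 was -0.08 after another quantile normalization, which kept the sign of all 6 ratios. Mthfd1l over Mthfd1 ran the other way, at 0.84 ± 0.03 in knockout arrays and 0.61 ± 0.18 in wild type arrays. Mthfd2 over Mthfd2l and Azin1 over Oaz1 overlapped between the groups.

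**Figure D3:**
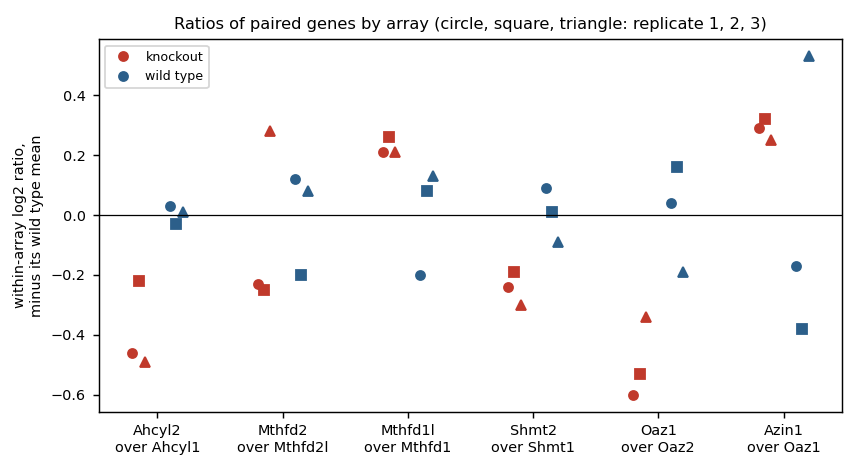
Log2 ratio of 2 genes within each array, minus the mean of that ratio in wild type arrays (vertical axis), for 6 pairs; red points are knockout and blue points wild type arrays. The groups are separate for Ahcyl2 over Ahcyl1, Mthfd1l over Mthfd1, Shmt2 over Shmt1 and Oaz1 over Oaz2, with the widest shift of -0.50 for Oaz1 over Oaz2.

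Further genes of these pathways and of the amino acid stress response, listed by function, held few calls too. Of 75 listed symbols 68 were measured, and their median difference was 0.02. As higher 2 passed and as lower 0 (2.94%, beside 5.50% of all genes). At an unadjusted p under 0.05 there were 15 (22.1%, beside 18.0%). The groups did not overlap with knockout higher in 22.1%, beside 13.7% of all genes, and lower in 5.88%, beside 9.78%. Adssl1, the adenylosuccinate synthase known from muscle, read 5.29, 4.82 and 5.09 in knockout arrays, against 4.004, 3.95 and 3.32 in wild type arrays. The knockout arrays were all higher, and the rise was 1.31 on the log2 scale (SE 0.19, adjusted p = 0.00427). Its wild type mean of 3.76 lay below the background guide, so the size of the rise is uncertain. Ddit3, the stress transcription factor CHOP, read 6.70, 6.90 and 7.02 in knockout arrays, against 6.10, 6.20 and 5.89 in wild type arrays, a rise of 0.81 (SE 0.13, adjusted p = 0.0057). Both still passed whichever array was left out, and after either rescaling.

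The lists those genes came from were otherwise without calls at an adjusted p under 0.05. For the counts that follow, 5.50% of all genes passed and 18.0% had an unadjusted p under 0.05. Of 15 measured genes of thymidylate synthesis and folate handling 0 passed (3 at an unadjusted p under 0.05), and the smallest p was that of Mthfs, which returns formyl-folate to the active pool (difference 0.53, SE 0.13, adjusted p = 0.0561), whose wild type mean of 3.73 lay below the background guide. Of 10 further purine synthesis genes Adssl1 alone passed (2 at an unadjusted p under 0.05). Of 14 genes of polyamine breakdown, transport and hypusination 0 passed (6 at an unadjusted p under 0.05), with the smallest p for Dhps, which uses spermidine to modify eIF5A (0.43, SE 0.13, adjusted p = 0.107). Of 16 genes of SAM use, transsulfuration and glutathione synthesis 0 passed (1 at an unadjusted p under 0.05), with the smallest p for the sulfide oxidase gene Sqor (0.38, SE 0.13, adjusted p = 0.149), which had a mean below the guide. Of 13 genes of the amino acid stress response and Myc 1 passed, Ddit3 (3 at an unadjusted p under 0.05). The factor upstream of Ddit3, Atf4, differed by 0.24 (SE 0.11, adjusted p = 0.329). Myc, a driver of Odc1 and folate genes in growing T cells, differed by -0.01 (SE 0.10, adjusted p = 0.988).

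The order of members by evidence changed with the processing. With the deposited values Mri1 had the smallest adjusted p, and Ahcyl2, Gart, Oaz1 and Mthfd2 followed. After another quantile normalization the smallest were Ahcyl2 (0.0223) and Oaz1 (0.0374), both lower in knockout arrays, and the median difference of the 35 members was -0.181, beside -0.058 over all genes. With the deposited values these medians were -0.041 and -0.012.

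**Figure D4:**
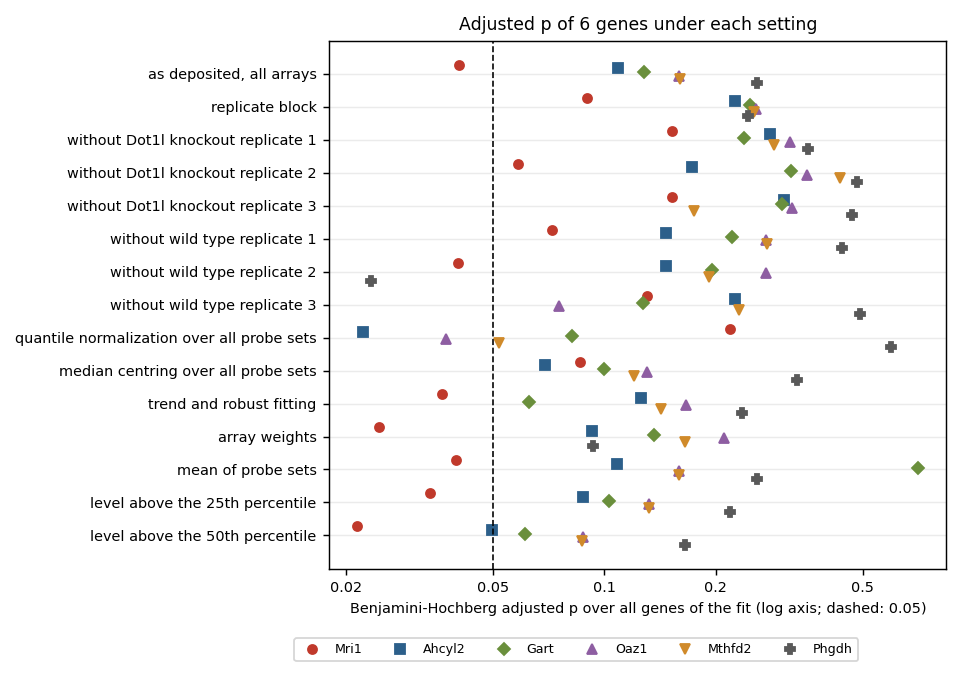
Benjamini-Hochberg adjusted p over all genes of each fit (horizontal log axis, dashed line at 0.05) for 6 genes under the deposited setting and each alternative (rows). Mri1 lies under 0.05 with the deposited values and above it after another quantile normalization, where Ahcyl2 and Oaz1 lie under it.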

How the data were processed

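The deposited table holds log2 expression values of 41345 probe sets on 6 arrays, which, per the submitters' processing notes, the authors computed by RMA (background correction, quantile normalization, median polish) under R version 3.1.1. The sources used here give no settings, annotation or genome build. In the platform annotation 23521 probe sets named 1 gene symbol, 1814 several and 16010 none. Of the first, 23328 were found in the RefSeq gene table. For 1082 genes with several, the brightest probe set by its 6-array mean was used, which left 22180 genes. Array medians lay between 3.69 and 3.78. For arrays the number of samples limits precision.

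Each gene was tested, knockout minus wild type, by lmFit and eBayes of limma (version 3.58.1, under R 4.3.3), without covariate, trend or robust fitting, and Benjamini-Hochberg adjustment over all genes. The script was tested on simulated data. Fold changes are 2 raised to the size of the log2 difference. The members, lists and tests were chosen with earlier results of these data known. Per-array values were given for genes that passed, the main pathway steps and the 8 largest differences; from each further list, genes that passed or, with none, the smallest p. Other genes were named after their values were seen. The replicate numbers were not treated as pairs. Deviations of same-numbered arrays from their group means correlated at -0.157 to -0.074, and those of other-numbered arrays at -0.037 to 0.117. Deviations inside a group sum to 0, so these values constrain each other and cannot decide whether the numbers pair arrays. The alternatives were a replicate block, each array left out, other scalings, level filters, trend with robust fitting, array weights, mean of probe sets and other thresholds. No explanation of any difference was tested.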

Additional observations from a re-analysis of the deposited data

How the results depend on the processing

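The count of members passing was small enough for most alternatives to move it. As higher, 1 member passed with the deposited values and 0 with the replicate number as a block, after quantile normalization, after median centring and at a threshold of 0.01, and leaving out 1 array gave 0 to 2. As lower, 0 passed with the deposited values, 2 after quantile normalization and 1 among genes above the 50th percentile of level. Mri1 under the block had an adjusted p of 0.0896, and its difference stayed above 0 in every alternative, from 0.307 to 0.580. Of all tested genes, 1220 passed, 534 at a threshold of 0.01 and 615 to 1307 when 1 array was left out, with fewer arrays in those fits. The block gave 912 genes. It marks a shared number, and whether the numbers pair arrays is not known. Of 35 members 24 kept the sign of their difference in every alternative. The other 11, all under 0.22 in size, did not. After quantile normalization Ahcy read -0.134, Adi1 -0.010, Shmt1 -0.150 and Psat1 -0.127. After median centring Cth read -0.004, Atic -0.001 and Psat1 -0.009, and with the mean of probe sets Ahcy read -0.016. Signs also changed when 1 array was left out, with Ahcy between -0.044 and 0.177, Mtrr between -0.076 and 0.009, Apip between -0.172 and 0.065, Odc1 between -0.154 and 0.139, Azin1 between -0.159 and 0.119, Shmt1 between -0.040 and 0.110, Aldh1l1 between -0.006 and 0.413, Atic between -0.015 and 0.163 and Psat1 between -0.112 and 0.156. The cause of these changes was not tested.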
